A study of Mus musculus with 12 samples.

Results

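Mitochondrial ribosomal protein genes were examined in mouse T-cell acute lymphoblastic leukemia (T-ALL) before and after 3 days of doxycycline. The members were chosen by name: every protein-coding gene with a symbol that begins with Mrpl or Mrps and goes on with a digit, in the RefSeq table that pairs symbols with the Entrez identifiers of the counts. The rule used no measured value, but the group was chosen with earlier results of these data known. It found 78 genes among 27179 identifiers, 49 named for the large subunit (Mrpl) and 29 named for the small subunit (Mrps).

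All 6 mice carried 1 primary leukemia, ALL101, in which the Vav-tTA transactivator switches on TRE-GFP-shIkaros, a hairpin linked to GFP that lowers Ikaros, the zinc-finger transcription factor encoded by Ikzf1. The comparison asks what differs in these cells after doxycycline, the treatment that brings Ikaros back. The control group was 3 recipient mice left untreated, whose sorted spleen leukemia cells the labels call GFPhigh. The other group was 3 recipient mice given doxycycline (Dox) for 3 days, which per the labels stops the hairpin and restores endogenous Ikaros, and whose sorted cells are labelled GFPmid. The labels give no age, sex or strain of the recipients. The treatment and the GFP gate cannot be told apart, and a single primary leukemia stands for the disease. No leukemia without the hairpin was given doxycycline here, so effects of the drug itself and of restored Ikaros cannot be told apart. The RNA of each mouse was sequenced in 2 runs, which were summed, so n is 3 mice in each group.

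The mitochondrial ribosome, or mitoribosome, translates the few messenger RNAs of mitochondrial DNA, all of which encode subunits of the respiratory chain and ATP synthase. Its ribosomal RNAs come from mitochondrial DNA, whereas all of its proteins are encoded in the nucleus, made in the cytosol and imported. Many of these proteins have a counterpart in bacterial ribosomes, and the others were acquired by mitochondria. Proliferating lymphocytes and leukemia cells build up this machinery as they grow.

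Totals ran from 29904744 to 44949303 counts per mouse. Ikzf1 stood at 153.8 ± 4.54 CPM (counts per 1000000 counts of the library; SD, n = 3) in untreated mice and 1486 ± 43.4 CPM after doxycycline, so the groups matched their labels at the targeted gene. The 8 T-cell markers summed to 4730 to 4801 CPM in untreated and 5075 to 5326 CPM in doxycycline mice. That sum was carried by Thy1 and Lck, and single markers went both ways: Cd2, Cd247 and Thy1 were called higher, Ptcra and Cd3g lower. B-cell markers summed to 0.50 to 0.84 CPM in untreated and 1.33 to 2.37 CPM in doxycycline mice, with 2 of 8 at 0 in all mice and Cd22 called higher (log2 fold change 2.45 ± 0.60, edgeR adjusted p = 0.01). Markers of other cells were low but rose in several cases: the 10 myeloid markers summed to 26.5 to 46.6 CPM and then 70.7 to 93.2 CPM (5 of 10 called higher, 3 called lower), and the 8 erythroid markers found to 8.76 to 57.7 CPM and then 88.3 to 120.1 CPM (4 called higher). The NK-cell list was carried by Gzma, at 811 to 1411 CPM untreated and 325 to 927 CPM after doxycycline. The 5 dendritic-cell markers summed to 0.80 to 1.27 CPM and then 2.23 to 2.74 CPM, with Flt3 called higher (1.76 ± 0.27, adjusted p = 0.0012), and the platelet and stroma list summed to 122 to 151 CPM and then 208 to 219 CPM, nearly all of it Pecam1 (Pecam1 and Col1a1 called higher). The part of such cells in the changes below was not tested. In a bulk sample, fewer cells of a type and less RNA per cell cannot be told apart. In the labels, INJ stands in the library name of untreated mouse 3 where those of the other mice name a GFP sort, and the erythroid sum of that mouse was the highest of the untreated mice.

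Transcripts of the mitoribosome fell as a broad group after doxycycline, by moderate amounts. Of 77 members with enough counts to test, 52 were called lower and 2 were called higher at an edgeR adjusted p under 0.05, and 23 were not called. Among all 13134 tested genes, 25.2% were called lower and 24.8% higher, so the members' share of lower calls, 67.5%, stood above the background and their share of higher calls, 2.60%, below it. The median log2 fold change was -0.33 over the members and -0.004 over all tested genes. The members also lay close together, with a standard deviation of their log2 fold changes of 0.22 against 0.89 over all tested genes. The latter include genes of low counts and run from -6.88 to 5.54, and no set of genes matched for level was compared. All 3 doxycycline values lay below all 3 untreated values for 58 of 77 members, where 30.9% of all tested genes showed this order.

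**Figure D1:**
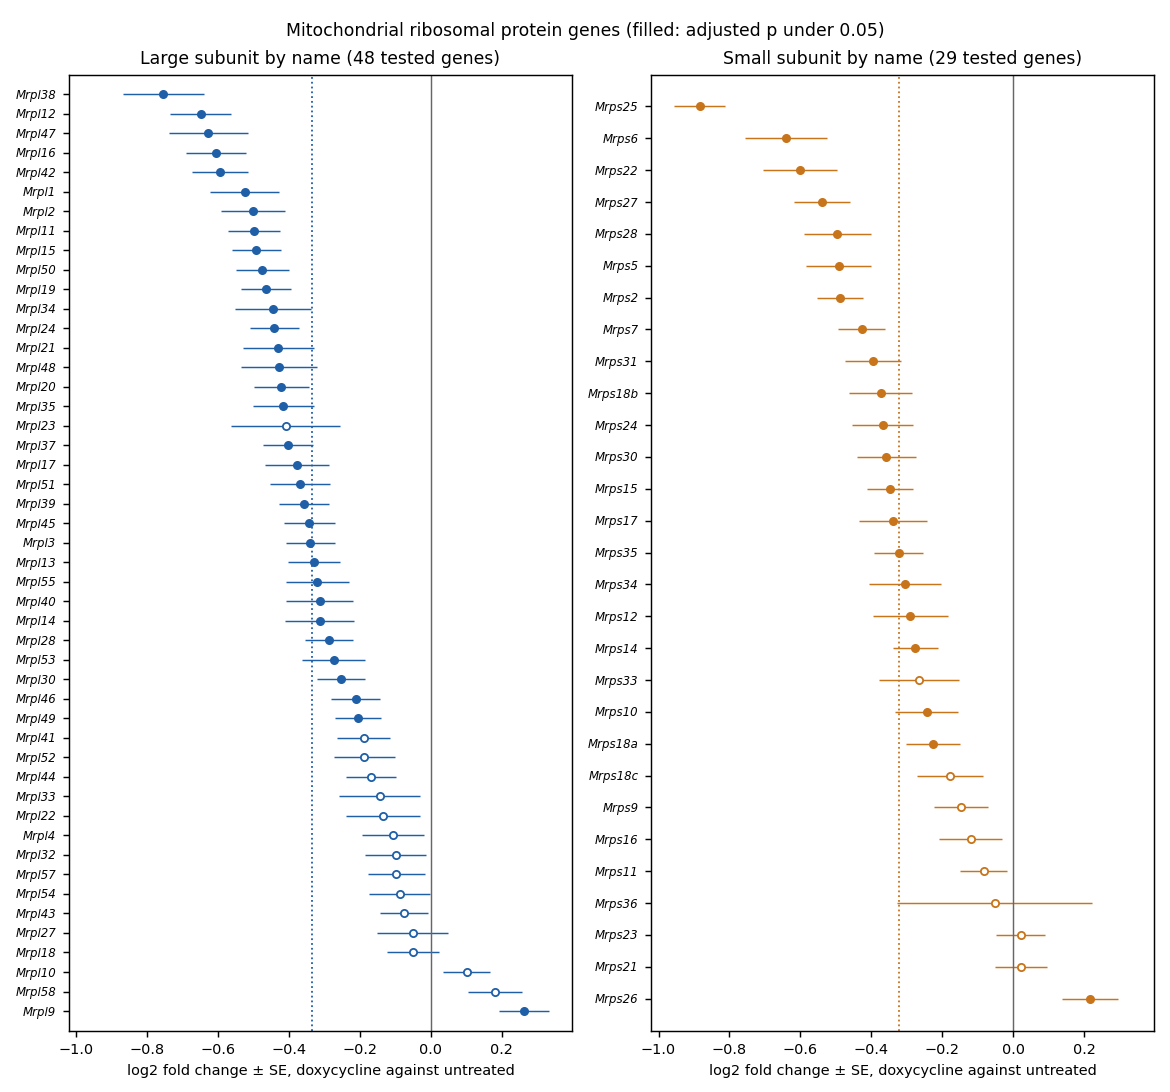
Fitted log2 fold change of doxycycline against untreated mice for each tested mitochondrial ribosomal protein gene, with its standard error (horizontal bars), for genes named for the large subunit (left, 48 genes) and the small subunit (right, 29 genes). Filled points passed an adjusted p of 0.05, and dotted lines mark the medians of -0.34 and -0.32. Most points lie left of 0 in both panels, and Mrpl9 and Mrps26 are the only filled points to the right.

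The change was visible in the sums over members in each mouse. All 78 genes together took 4032, 3925 and 3875 CPM in the untreated mice and 3179, 3192 and 3357 CPM in the doxycycline mice. The groups did not overlap, and the doxycycline mean was 82.2% of the untreated mean. Beside the mean untreated level, the median member stood at a log2 ratio of 0.03, -0.01 and -0.03 in the untreated mice and at -0.35, -0.36 and -0.27 in the doxycycline mice. These values are relative to the other transcripts of the same library, and the RNA content per cell was not measured.

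Large and small subunit genes gave similar shares of lower calls, and the difference between them was not tested. Lower calls took 32 of 48 tested large subunit genes (66.7%) and 20 of 29 small subunit genes (69.0%), and each subunit had 1 higher call. The medians were -0.34 and -0.32. For a measure of balance, levels were divided by the deposited gene length to give RPKM (CPM per kilobase) and summed by subunit. The ratio of large to small subunit sums was 2.17, 2.17 and 2.12 in the untreated mice and 2.15, 2.10 and 2.14 in the doxycycline mice. The groups overlapped, with means of 2.15 ± 0.03 and 2.13 ± 0.02 (SD, n = 3), while the sums themselves had fallen to 83.5% (large) and 84.4% (small) of the untreated mean. Counting Mrps30 and Mrps18a with the large subunit, where their proteins sit, and leaving out Mrps36 moved the ratio to 2.39 ± 0.04 and 2.36 ± 0.02.

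**Figure D2:**
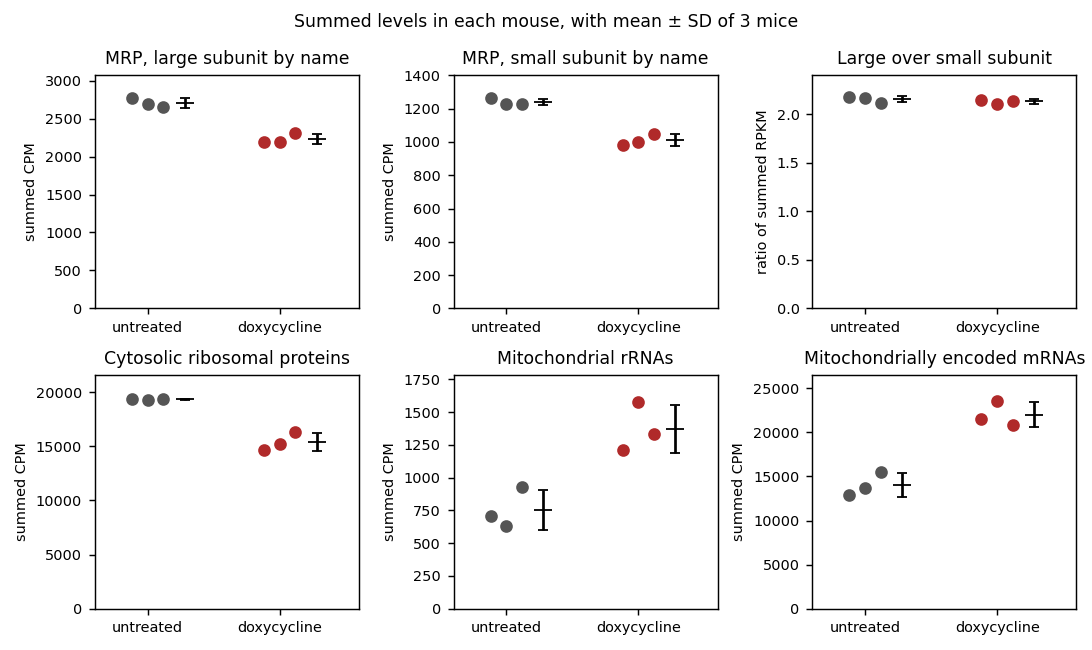
Summed level in each mouse (points) with the mean ± SD of 3 mice (black) for mitochondrial ribosomal protein genes (MRP) of the large and small subunit, the ratio of large to small subunit RPKM sums, cytosolic ribosomal protein genes, the mitochondrial rRNAs and the mitochondrially encoded mRNAs; vertical axes start at 0. Both subunit sums and the cytosolic sum are lower in all 3 doxycycline mice, the ratio lies between 2.10 and 2.17 in all 6 mice, and the RNAs made inside mitochondria are higher in all 3 doxycycline mice.

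Among large subunit genes the deepest fall was that of Mrpl38, a mitochondria-specific protein (Entrez ID 60441, chromosome 11 at 116131817 to 116138868 of GRCm38). It measured 49.9, 55.5 and 52.4 CPM in untreated and 26.2, 36.1 and 31.1 CPM in doxycycline mice. The log2 fold change was -0.75 ± 0.12 (SE; edgeR adjusted p = 0.0011), or 40.8% below the untreated mean, and the groups were well apart although the doxycycline mice were scattered. Mrpl12, the counterpart of the bacterial stalk protein that recruits translation factors and also known as a partner of the mitochondrial RNA polymerase (Entrez ID 56282, chromosome 11 at 120484637 to 120488754), went from 80.1, 73.0 and 81.1 to 48.3, 46.3 and 54.9 CPM. Its log2 fold change was -0.65 ± 0.09 (adjusted p = 0.0006). Mrpl47 followed at -0.63 ± 0.11 (adjusted p = 0.0023), with untreated mice spread from 30.7 to 41.2 CPM and doxycycline mice between 22.4 and 24.2 CPM. Mrpl16, a counterpart of a bacterial protein near the tRNA sites, had 36.1, 32.6 and 33.5 CPM and then 22.1, 21.3 and 23.8 CPM, at -0.61 ± 0.09 on the log2 scale (adjusted p = 0.00075). Mrpl42, which bacteria lack, had 57.4, 55.7 and 51.4 CPM and then 37.1, 33.8 and 38.0 CPM, at -0.59 ± 0.08 (adjusted p = 0.00064). In each of these 5 genes every doxycycline mouse was below every untreated mouse, an order that 30.9% of all tested genes showed.

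Among small subunit genes Mrps25 fell the most of all 77 tested members. Mrps25, a mitochondria-specific protein (Entrez ID 64658, chromosome 6 at 92169512 to 92184023), had 58.6, 55.6 and 57.1 CPM in untreated and 29.3, 31.1 and 32.3 CPM in doxycycline mice. The replicates were tight and the log2 fold change was -0.88 ± 0.07 (adjusted p = 9e-05), 45.8% below the untreated mean. In the GENCODE M21 annotation, exons of Nr2c2 cover 69.8% of the exonic bases of Mrps25, and Nr2c2 itself had a log2 fold change of 0.08 ± 0.07 (adjusted p = 0.36). Mrps6, a counterpart of a bacterial protein, went from 19.7, 18.0 and 17.8 to 12.3, 10.3 and 13.0 CPM (-0.64 ± 0.12, adjusted p = 0.0024). Mrps22, a mitochondria-specific protein, had 61.0, 54.8 and 48.2 CPM in untreated mice, the widest untreated spread among the small subunit genes described here, and 37.2, 32.6 and 38.4 CPM after doxycycline (-0.60 ± 0.11, adjusted p = 0.002). Mrps27, a pentatricopeptide repeat protein of the class that binds RNA, fell from 42.5, 41.8 and 39.2 to 27.8, 27.3 and 30.0 CPM (-0.54 ± 0.08, adjusted p = 0.00086). Mrps28 fell from 36.4, 37.6 and 35.3 to 23.7, 24.8 and 29.0 CPM (-0.50 ± 0.09, adjusted p = 0.003). None of these 5 genes overlapped between the groups. Both sets of 5 were picked for the lowest log2 fold changes, so that order is no separate support.

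**Figure D3:**
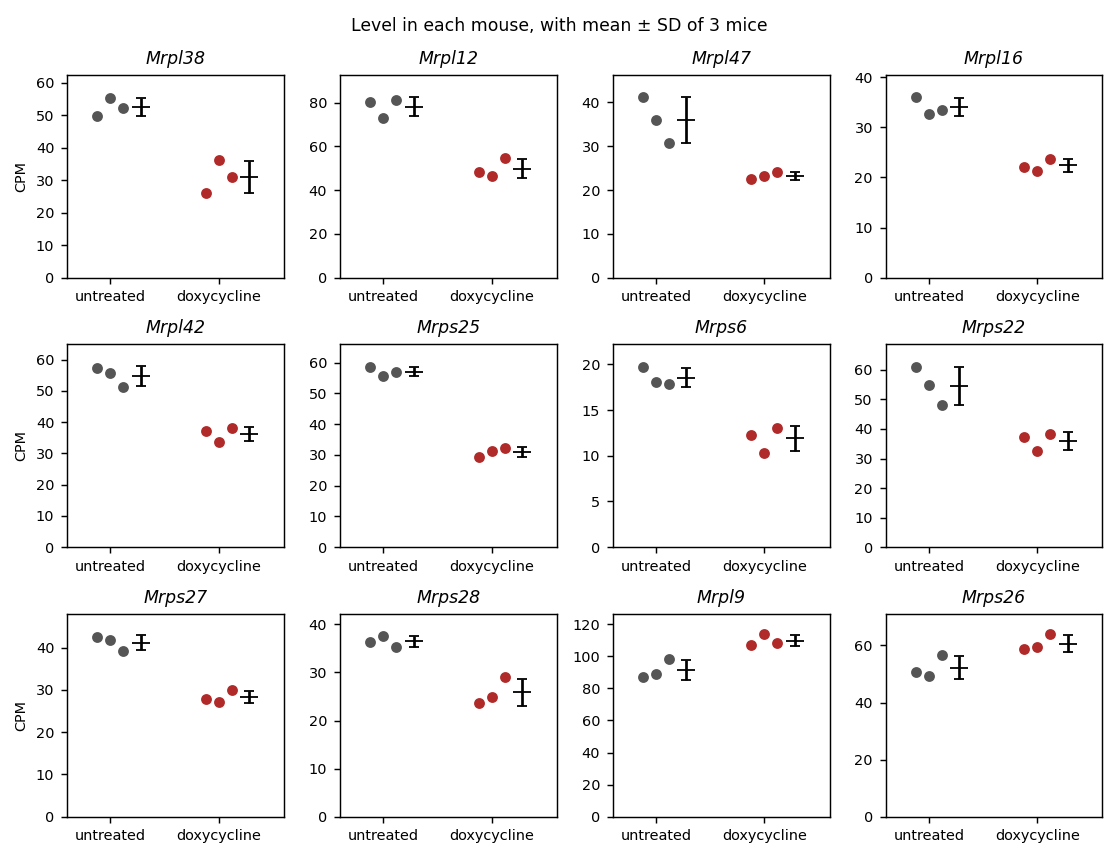
CPM of each mouse (points) with mean ± SD of 3 mice (black) for the 5 lowest log2 fold changes of each subunit and for the 2 genes called higher, Mrpl9 and Mrps26; vertical axes start at 0. In the first 10 panels all doxycycline mice lie below all untreated mice, and in the last 2 they lie above.

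The members called against the majority were Mrpl9 and Mrps26. Mrpl9, a counterpart of a bacterial large subunit protein (Entrez ID 78523, chromosome 3 at 94443154 to 94448708), had 86.8, 89.2 and 98.3 CPM in untreated and 107.3, 113.7 and 108.2 CPM in doxycycline mice. The log2 fold change was 0.26 ± 0.07 (edgeR adjusted p = 0.015). That adjusted p became 0.063 without untreated mouse 1 and 0.074 without untreated mouse 2. Mrps26, a mitochondria-specific small subunit protein (Entrez ID 99045, chromosome 2 at 130563757 to 130565394), had 50.6, 49.2 and 56.8 CPM and then 58.7, 59.4 and 63.9 CPM. Its log2 fold change of 0.22 ± 0.08 passed narrowly (adjusted p = 0.048). That call was lost on leaving out any 1 mouse except untreated mouse 3, with adjusted p from 0.053 without doxycycline mouse 2 to 0.20 without untreated mouse 2. In both genes all doxycycline mice lay above all untreated mice, an order that 3973 of 13134 tested genes showed. The groups were less far apart than in the genes with the deepest falls.

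The mildest lower calls of each subunit follow, and all but that of Mrps14 were lost in at least 1 fit that left out 1 mouse. Among large subunit genes they were Mrpl49 (-0.21 ± 0.07), Mrpl46 (-0.21 ± 0.07), Mrpl30 (-0.25 ± 0.07) and Mrpl53 (-0.27 ± 0.09), with edgeR adjusted p of 0.028, 0.033, 0.014 and 0.032. Among small subunit genes they were Mrps18a (-0.23 ± 0.08), Mrps10 (-0.24 ± 0.09), Mrps14 (-0.28 ± 0.06) and Mrps12 (-0.29 ± 0.11), with adjusted p of 0.037, 0.046, 0.007 and 0.047. Mrps14 passed on leaving out any 1 mouse. Mrpl30 failed without untreated mouse 2 (adjusted p = 0.075), and Mrpl46 and Mrps10 failed without any 1 of the 6 mice (adjusted p of 0.054 to 0.11 and 0.07 to 0.11). With 1 mouse left out, Mrpl49 passed only without doxycycline mouse 2 and otherwise had 0.06 to 0.075, while Mrpl53 and Mrps18a passed only without doxycycline mouse 3 and otherwise had 0.056 to 0.095 and 0.069 to 0.11. Mrps12, the counterpart of a bacterial protein of the decoding centre, was the only member called lower whose groups overlapped, at 33.3, 38.9 and 39.1 CPM untreated and 27.9, 29.0 and 34.1 CPM after doxycycline. Its call was lost without untreated mouse 2 or 3 or doxycycline mouse 1 or 2 (adjusted p of 0.14, 0.11, 0.14 and 0.12). In all, 40 of the 52 lower calls held on leaving out each mouse in turn.

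Some members have a place or role that departs from their name. Mrps30 and Mrps18a proteins sit in the large subunit, and both transcripts fell: Mrps30 from 66.7, 55.8 and 57.2 to 45.8, 47.1 and 47.2 CPM (-0.36 ± 0.08, edgeR adjusted p = 0.0077), and Mrps18a as given above. Of the 3 paralogs of the bacterial small subunit protein of that number, Mrps18b fell by 0.37 ± 0.09 log2 units (adjusted p = 0.0083), from 18.2, 17.4 and 18.0 to 14.0, 13.6 and 13.7 CPM. Mrps18c had a log2 fold change of -0.18 ± 0.09 and was not called (adjusted p = 0.14). Mrpl58, also known as Ict1, a peptidyl-tRNA hydrolase that frees stalled mitoribosomes and is built into the large subunit, went from 80.0, 76.6 and 74.2 to 80.6, 93.6 and 87.4 CPM. Its log2 fold change of 0.18 ± 0.08 did not pass (adjusted p = 0.077), and it passed without doxycycline mouse 1 (0.24, adjusted p = 0.042). Mrps36, a component of the oxoglutarate dehydrogenase complex rather than of the mitoribosome, was near the low end, at 0.8 to 1.5 CPM in every mouse, and had no resolvable difference (-0.05 ± 0.28, adjusted p = 0.89). Mrpl36 was left untested, with 6 counts in all untreated mice and 0 in all doxycycline mice, where the depth leaves room for 0.0667 to 0.0885 CPM (3 counts) under a count of 0.

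Levels per length differed among members by far more than they changed. The mean over both groups ran from 1.56 RPKM (Mrps36) to 131.6 RPKM (Mrpl13), and the median was 36.8 RPKM for large and 37.3 RPKM for small subunit genes. The 3 highest large subunit genes were Mrpl13, Mrpl18 and Mrpl52. Mrpl13 fell from 146.5 ± 9.35 to 116.6 ± 4.99 RPKM (log2 fold change -0.33 ± 0.07, edgeR adjusted p = 0.0058). Mrpl18, whose protein also takes part in importing 5S ribosomal RNA, stood at 130.3 ± 2.74 and 125.9 ± 9.74 RPKM (adjusted p = 0.59), and Mrpl52 at 129.4 ± 3.62 and 113.7 ± 11.9 RPKM (adjusted p = 0.11). Without doxycycline mouse 3, Mrpl52 was called lower (-0.26, adjusted p = 0.032). The 3 highest small subunit genes were Mrps21 (81.6 ± 4.07 and 82.9 ± 0.71 RPKM), Mrps16 (80.4 ± 3.50 and 74.0 ± 7.55 RPKM) and Mrps23 (61.0 ± 1.87 and 61.9 ± 2.92 RPKM), and none was called (adjusted p of 0.82, 0.30 and 0.82). So 1 of these 6 genes passed the test. Across the 77 tested genes, mean RPKM and log2 fold change had a Spearman rho of 0.34, and gene length and log2 fold change of -0.27. These are descriptions across genes that share the same 6 mice and whose RPKM holds the length itself.

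Proteins classed as having a bacterial counterpart and proteins classed as mitochondria-specific gave similar shares, which were not tested against each other. The second kind holds Mrps18a and Mrps18b, although they are paralogs of a bacterial protein. Of 45 tested genes of the first kind 31 were called lower and 1 higher, with a median log2 fold change of -0.34. Of 31 of the other kind 21 were called lower and 1 higher, with a median of -0.31. Within the large subunit by place the medians were -0.38 (29 genes) and -0.27 (21 genes), and within the small subunit -0.32 (16 genes) and -0.35 (10 genes). The lower shares in these 4 classes lay between 66.7% and 70.0%, beside 25.2% of all tested genes.

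The annotation limits some of these values. For 18 of the 78 members, exons of another gene cover at least 10% of the exonic bases in GENCODE M21, and the strand setting of the counting is not given in the sources used here. Without them 38 of 59 tested members were called lower (64.4%) and 2 higher (3.39%), with a median of -0.32. Among all tested genes the shares were 25.2% and 24.8%. The largest coverage was 88.0% for Mrpl53, followed by 77.8% for Mrps34 and 69.8% for Mrps25, and among the other genes with the deepest falls it was 13.1% for Mrpl12, 19.9% for Mrps6 and 24.2% for Mrpl47 and for Mrps27. Mrps34 stood at -0.31 ± 0.10 log2 units (edgeR adjusted p = 0.033), while Mapk8ip3, whose exons overlap it, rose by 0.76 ± 0.10 log2 units (adjusted p = 0.00051). The Mrps34 call was lost without untreated mouse 2 or 3 or doxycycline mouse 1 or 3, with adjusted p of 0.079 to 0.11. Exons of Twnk, the mitochondrial DNA helicase, cover 33.4% of Mrpl43. Twnk fell by 0.73 ± 0.07 log2 units (adjusted p = 0.00019), and Mrpl43 stood at -0.08 ± 0.07 (adjusted p = 0.38).

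Promoter sequence was examined because the members, spread over 17 chromosomes, moved together. RefSeq windows of GRCm38 from 250 bases before to 50 bases after a start were found for 69 of 78 members (75 windows, as some genes have several starts). Each was searched on both strands. The ETS or GABPA core CCGGAAG was present in 34.7% of member windows, in 8.86% of all 32851 windows and in 18.1% of the windows of tested protein-coding genes. The YY1 core AAGATGGC was present in 16% of member windows against 2.75% and 4.49%, and the NRF1 core GCGCATGC in 10.7% against 2.71% and 5.27%. These 3 factors are known regulators of nuclear genes for mitochondria. The E-box CACGTG, the site of Myc with Max, was in 9.33% against 7.15% and 9.87%, the SP1 box GGGCGG in 52.0% against 35.7% and 61.8%, CCAAT in 40.0% against 37.4% and 38.2%, and TGGGAA, which holds the core bound by Ikaros, in 26.7% against 25.6% and 23.0%. The ETS core was in the windows of 12 of 45 members called lower and of 14 of 24 other members, and TGGGAA in 13 of 45 and 7 of 24. A match shows only that the letters are present.

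Stretches directly upstream of the start, free of annotated exons, are shown for 3 genes that fell (Mrps22, Mrpl42 and Mrpl34) and for Mrpl52, a highly expressed gene that was not called, to set their motifs side by side. They were picked after their values were seen and do not stand for all members. Over all windows searched, TGGGAA was about as common in members called lower (13 of 45) as in other members (7 of 24). Capitals mark matches to the ETS, SP1 and TGGGAA motifs on either strand, and positions count back from the start. Mrps22 lies on the minus strand at chr9:98601680-98601829, with an ETS match at 11 bases, a TGGGAA match (read on the other strand) at 42 bases and an SP1 match at 147 bases upstream. Mrpl42 lies on the minus strand at chr10:95501950-95502099, with SP1 (read on the other strand) at 90 and TGGGAA at 142 bases upstream. Mrpl34, which fell by 0.45 ± 0.11 log2 units (edgeR adjusted p = 0.0089), lies on the plus strand at chr8:71464776-71464925. It has ETS at 37 and TGGGAA (read on the other strand) at 6 bases upstream. Mrpl52 lies on the plus strand at chr14:54426759-54426908, with ETS at 47 bases upstream on the other strand.
Mrps22: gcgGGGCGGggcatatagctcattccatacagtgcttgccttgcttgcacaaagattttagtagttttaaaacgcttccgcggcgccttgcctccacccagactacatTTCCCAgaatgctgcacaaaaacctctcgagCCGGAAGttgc
Mrpl42: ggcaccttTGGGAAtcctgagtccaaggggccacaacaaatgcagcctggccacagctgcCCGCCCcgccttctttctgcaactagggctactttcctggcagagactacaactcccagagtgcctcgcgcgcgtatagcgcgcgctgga
Mrpl34: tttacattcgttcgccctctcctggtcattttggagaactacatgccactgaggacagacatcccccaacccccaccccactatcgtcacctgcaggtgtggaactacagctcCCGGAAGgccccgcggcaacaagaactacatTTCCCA
Mrpl52: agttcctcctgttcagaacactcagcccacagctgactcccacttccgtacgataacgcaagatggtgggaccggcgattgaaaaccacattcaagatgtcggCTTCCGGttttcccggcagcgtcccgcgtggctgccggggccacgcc

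Mitoribosome proteins with other symbols were mixed: 3 of 5 were called lower and 1 higher, beside 25.2% and 24.8% of all tested genes. Ptcd3 (small subunit, at the mRNA entry), Chchd1 and Gadd45gip1 were called lower, at -0.44 ± 0.07, -0.58 ± 0.09 and -0.32 ± 0.09 (edgeR adjusted p of 0.0012, 0.0014 and 0.013), and Aurkaip1 was not called (-0.15 ± 0.07). Dap3, the GTP-binding protein of the small subunit, rose by 0.28 ± 0.06 log2 units (adjusted p = 0.0052), from 148.9 to 180.2 CPM on average. All doxycycline mice lay above all untreated mice, as in 3973 of 13134 tested genes.

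Of 28 genes of mitoribosome assembly and rRNA modification, 10 were called lower (35.7%) and 2 higher (7.14%), with a median of -0.19. Among all tested genes 25.2% were called lower and 24.8% higher. The smallest p values were those of Noa1, a GTPase of small subunit assembly (-0.78 ± 0.07, edgeR adjusted p = 0.00014), Rcc1l (-0.77 ± 0.09, adjusted p = 0.00028) and the rRNA methyltransferase Mrm1 (-0.63 ± 0.09, adjusted p = 0.00064). The higher calls were Mettl17 (0.36 ± 0.11, adjusted p = 0.02, and 0.073 or 0.077 without untreated mouse 1 or 2) and Spg7 (0.26 ± 0.09, adjusted p = 0.036, and up to 0.13 without untreated mouse 1 or 3 or doxycycline mouse 2 or 3). Of 14 tested translation factors 4 were called lower and 1 higher, with a median of -0.16, a lower share of 28.6% that is near the background. They were led by the peptide deformylase Pdf (-0.65 ± 0.08, adjusted p = 0.00048), the release factor family member Mtrf1 (-0.70 ± 0.12, adjusted p = 0.0018) and the elongation factor Tsfm (-0.34 ± 0.09, adjusted p = 0.015). The higher call was the initiation factor Mtif3 (0.41 ± 0.11, adjusted p = 0.017), lost without untreated mouse 2 (0.079) or doxycycline mouse 1 (0.053). Of 20 genes of mitochondrial aminoacyl-tRNA synthesis 11 were called lower (55.0%) and 0 higher, with a median of -0.28. Among them were the tRNA synthetase Yars2 (-0.61 ± 0.09, adjusted p = 0.0008) and Gatb, a subunit of the amidotransferase that makes glutaminyl-tRNA (-0.47 ± 0.09, adjusted p = 0.004).

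RNAs made inside mitochondria moved the other way. The 12S ribosomal RNA mt-Rnr1 rose by 0.87 ± 0.14 log2 units (edgeR adjusted p = 0.002) and the 16S ribosomal RNA mt-Rnr2 by 0.86 ± 0.18 (adjusted p = 0.0063). Together they took 704.5, 630.3 and 928.4 CPM in untreated and 1214, 1574 and 1332 CPM in doxycycline mice. The groups did not overlap, and untreated mouse 3 was the highest of its group. All 13 mitochondrially encoded mRNAs were called higher, where 24.8% of all tested genes were. Their log2 fold changes ran from 0.41 to 0.85, and the 3 smallest p values were those of mt-Cytb, mt-Co2 and mt-Nd6. Without untreated mouse 2, mt-Nd3 was not called (adjusted p = 0.058) and 12 were. Their sum rose to 157% of the untreated mean, while the sum of the 78 ribosomal protein genes fell to 82.2%. Whether the libraries were selected for poly(A) RNA is not given in the sources used here, which bears on the level of the ribosomal RNAs.

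Of 16 genes of mitochondrial transcription and RNA processing 10 were called lower (62.5%) and 2 higher (12.5%), with a median of -0.36. Among all tested genes the shares were 25.2% and 24.8%. Lrpprc, which stabilises mitochondrial mRNAs, fell by 0.64 ± 0.08 log2 units (edgeR adjusted p = 0.00038), Tefm, a transcription elongation factor, by 0.64 ± 0.11 (adjusted p = 0.0018), and the tRNA-processing nuclease Elac2 by 0.39 ± 0.08 (adjusted p = 0.0032). The mitochondrial RNA polymerase Polrmt fell by 0.40 ± 0.11 (adjusted p = 0.014), and Tfam, which packages mitochondrial DNA and starts its transcription, stood at -0.03 ± 0.06 (adjusted p = 0.74). The higher calls were Mterf2 (0.61 ± 0.14, adjusted p = 0.0076) and Mterf1b (0.55 ± 0.19, adjusted p = 0.042). Mterf1b, which has a close copy, itself stood at 1.83 CPM untreated. Its call was lost without any 1 of the 6 mice (0.059 to 0.11). With all mice, it was also lost with DESeq2 (0.088), without a filter (0.076), with the replicate block (0.071) and in each run alone (0.073 and 0.15). Among 9 genes of mitochondrial DNA replication 4 were called lower (44.4%) and 2 higher (22.2%), the higher share near that of all tested genes. The smallest p values were those of Twnk (above), of Tk2, the mitochondrial thymidine kinase, which rose by 0.65 ± 0.09 (adjusted p = 0.00058), and of the topoisomerase Top1mt, which fell by 0.99 ± 0.17 (adjusted p = 0.002). Of 9 tested regulators 4 were called lower (44.4%) and 2 higher (22.2%), with the higher share again near that of all tested genes. The coactivator Pprc1 fell by 0.95 ± 0.09 (adjusted p = 0.00013), Myc by 1.33 ± 0.15 (adjusted p = 0.00044) and its partner Max by 0.34 ± 0.06 (adjusted p = 0.002). The higher calls were small: Nrf1 at 0.19 ± 0.06 (adjusted p = 0.031) and Gabpa at 0.18 ± 0.06 (adjusted p = 0.032). Nrf1 was lost without untreated mouse 1 or 2 or doxycycline mouse 2 or 3 (adjusted p of 0.10, 0.14, 0.053 and 0.051), and Gabpa without any untreated mouse or without doxycycline mouse 1 (0.057 to 0.14). With all mice kept, Nrf1 and Gabpa were also lost without a filter on low counts (0.065 and 0.069) and with the replicate block (0.052 for each).

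**Figure D4:**
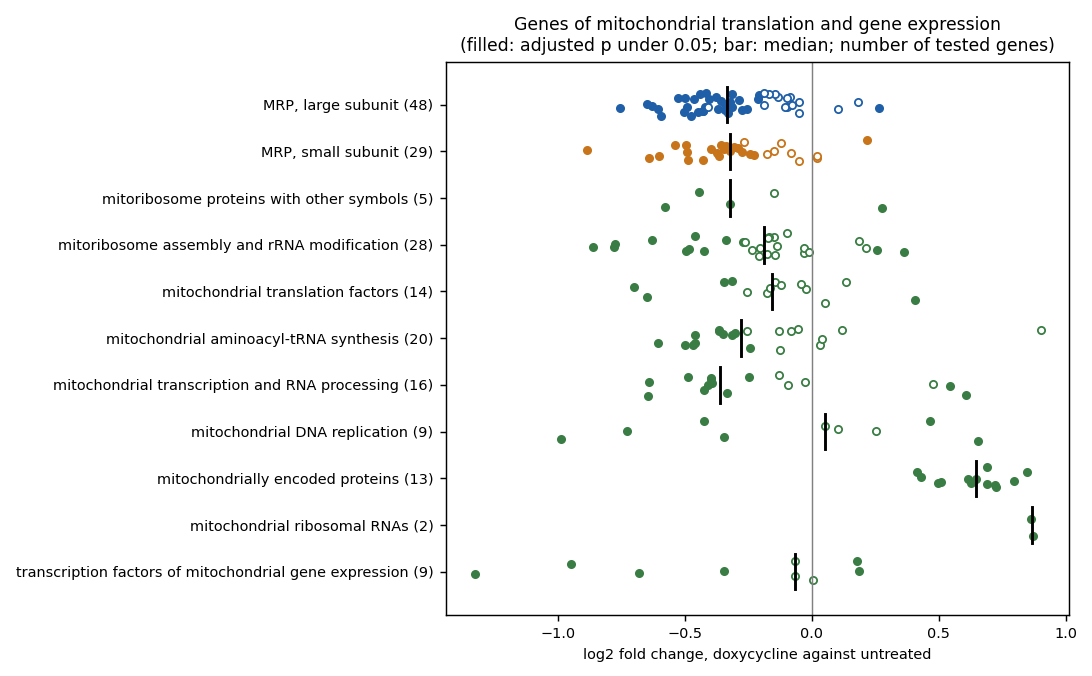
Fitted log2 fold change (horizontal axis) of each tested gene in the mitochondrial ribosomal protein groups (MRP) and in lists of other genes of mitochondrial gene expression (rows, with the number of tested genes). Filled points passed an adjusted p of 0.05 and black bars mark medians: the ribosomal protein medians are -0.34 and -0.32, while the mitochondrially encoded mRNAs and rRNAs all lie to the right of 0.

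Proteins of the cytosolic ribosome, a separate set of nuclear genes, gave values close to those of the mitoribosome. Of 77 genes 51 were called lower (66.2%) and 1, Rpl15, higher (0.87 ± 0.08 log2 units, edgeR adjusted p = 0.00012), and the median log2 fold change was -0.32. Among all tested genes 25.2% were called lower and 24.8% higher. Their sum was 19380, 19290 and 19350 CPM in untreated and 14610, 15200 and 16270 CPM in doxycycline mice, 79.4% of the untreated mean. The difference between the 2 kinds of ribosome was not tested.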

How the data were processed

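Per the labels, T-ALL cells were sorted from spleens, RNA was prepared with a column kit and libraries followed Illumina protocols. The authors deposited raw counts per Entrez gene with a gene length. Per the submitters' processing notes, CASAVA 1.8.1, featureCounts and the mm10 build (GRCm38) were used; the sources used here do not give the aligner, strand setting or handling of multi-mapping reads. Per-library and whole-series counts were equal for 12 of 12 libraries. Symbols came from RefSeq (25293 of 27179 identifiers). The 2 runs were summed per mouse. Nothing in the labels tells whether the mice were one transplant cohort, and p values measure the spread between these mice.

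edgeR 4.0.16 (R 4.3.3) was used as a robust quasi-likelihood F test without a block, after filterByExpr and TMM scaling, with Benjamini-Hochberg adjustment over all 13134 tested genes at 0.05. SE is the absolute log2 fold change over the square root of F. CPM uses TMM-scaled library sizes. An exact permutation test of 3 against 3 mice cannot go below 0.1. The code was tested on simulated counts. The members and lists were chosen with earlier results of these data known, and some list genes had no row or no symbol match. Named members were the 5 lowest and 5 highest called log2 fold changes and the 3 highest RPKM per subunit, members whose role departs from the name, Mrpl12, Mrps12 and calls against the majority. Named list genes were up to 3 called genes with the smallest p, with Polrmt, Tfam, Myc and Ikzf1. An item that this rule takes is not reported here. Nr2c2, Mapk8ip3, Mrpl34, Mrpl36, Mrps34, Mrpl43, Gadd45gip1, Aurkaip1, the higher calls of the lists, the marker genes named and the promoters shown were chosen after their values were seen. Alternatives were RLE, upper quartile or no size factors, 2 other filters, DESeq2 1.42.0, limma-voom (limma 3.58.1), single runs, a replicate block, fitting without the robust option and leaving out each mouse. Leaving out untreated mouse 3 with doxycycline mouse 2, and leaving out members with exonic overlap, were added after seeing the data.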

Additional observations from a re-analysis of the deposited data

How the results depend on the processing

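The count of members called lower stayed within 1.5 times of 52 under every alternative run, from 41 to 52 over the same members and 38 without those whose exons overlap another gene (fewer genes by construction), and the median log2 fold change stayed between -0.35 and -0.29. Leaving out each mouse in turn gave 41 to 49 members called lower (26 to 31 large, 15 to 18 small), 0 to 2 called higher, a median from -0.35 to -0.29 and 4869 to 6281 of all genes called, against 6571 with all mice. Without both untreated mouse 3 and doxycycline mouse 2 there were 44 lower and 2 higher. Each run alone gave 45 and 47 lower. The 2 higher calls, Mrpl9 and Mrps26, became 1 with upper quartile factors and 1 without a filter, 0 when untreated mouse 1 or 2 was left out, and 1 (Mrpl9) when it was doxycycline mouse 2 or 3. Without doxycycline mouse 1 and in run 2 alone the count stayed at 2, but Mrps26 missed the threshold (adjusted p of 0.069 and 0.075) and Mrpl58 passed it (0.042 and 0.038). Replicate numbers showed no clear pairing of the mice. Correlations of deviations were 0.19, -0.02 and -0.12 for equal numbers and -0.23 to 0.20 for unequal ones. With 3 mice in each group this cannot exclude a pairing. With the replicate block 47 members were called lower (29 large, 18 small) and 2 higher, and Mrpl46, Mrpl49, Mrpl53, Mrps10 and Mrps18a missed the threshold. Some members without a call changed sign. With each mouse left out in turn, Mrpl18 ranged from -0.082 to 0.026, Mrps21 from -0.020 to 0.053, Mrps23 from -0.003 to 0.054 and Mrps36 from -0.236 to 0.172. In run 2 alone Mrpl18 stood at 0.012 and Mrps36 at 0.273, and in run 1 alone Mrps21 at -0.009. Without both mice, Mrpl18 stood at 0.014 and Mrps23 at -0.028. The cause was not tested. At about 1 CPM, Mrps36 had a standard error of 0.28, so changes of the size seen in other members could not be resolved there. The large to small ratio after doxycycline was 0.989 times that of untreated mice, 0.986 times by place, 0.996 times in run 1 alone and 0.982 times in run 2 alone.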

Other observations

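Many members share a bidirectional promoter region. In GENCODE M21, 23 members start within 1000 bases of a protein-coding gene that runs the other way, and both genes were tested in 22 of these pairs. Genes whose starts overlap by more than a short stretch were left out of this count. Mrpl46 with Mrps11, and Mrpl43 with Twnk, are not among the 22 pairs. Of the 14 members in them called lower, 4 had a neighbour that was also called lower, 0 had one called higher and 10 had one that was not called, where 25.2% of all tested genes were called lower. Of those 4 neighbours only Hira was still called without untreated mouse 1, when Cyb5rl, Ptcd2 and Zfp661 had adjusted p of 0.059, 0.067 and 0.1. Ptcd2 missed the threshold without any 1 mouse except doxycycline mouse 3 (adjusted p of 0.067 to 0.082), and Zfp661 without any 1 mouse except untreated mouse 3 (0.05 to 0.1). The neighbours of all 22 had a median log2 fold change of -0.12, against -0.30 for the members, and the member had the lower value in 15 of 22 pairs. Hira, a histone chaperone and the neighbour of Mrpl40, fell by 0.42 ± 0.07 log2 units (edgeR adjusted p = 0.0014) beside -0.31 for Mrpl40. Pnpla7, the neighbour of Mrpl41, rose by 0.37 ± 0.09 log2 units (adjusted p = 0.01, and 0.059 without untreated mouse 2) beside -0.19 for Mrpl41, which was not called. Gga3 stood at 0.18 ± 0.08 (adjusted p = 0.088) beside a fall of its neighbour Mrps7 by 0.43. Sars2, the mitochondrial seryl-tRNA synthetase that starts beside Mrps12, stood at -0.13 ± 0.10 (adjusted p = 0.32). The pairs were named after their values were seen, and the difference between members and neighbours was not tested.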
